A study of Mus musculus with 185 samples.

Results

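Integrins were examined in single epidermal Langerhans cells (LCs) as 10 genes, chosen by their symbols for the receptors they encode, among the 45661 genes counted. They were the alpha chains Itgax, Itgam, Itgal, Itga4, Itga5, Itga6 and Itgae and the beta chains Itgb2, Itgb1 and Itgb7. The cells came from bone marrow chimeras (BMC) made by irradiating CD45.1 mice whose Cd207 locus encodes a receptor for diphtheria toxin (DT), termed Cd207DTR, and giving them CD45.2 wild-type (WT) marrow. All hosts received a low dose of DT, 5 ng per gram of body weight, and the epidermis was taken 2 months later. Host CD45.1 cells are embryo-derived LCs (eLCs) and donor CD45.2 cells are monocyte-derived LCs (moLCs), so the eLCs were host cells present after DT and carry the Cd207DTR allele, while the moLCs do not. Origin, allele, and irradiation history cannot be told apart in this design. Cells were sorted as lineage-negative, CD11c+, CD11b+, CD24+, MHCII+, and CD326+, so the proteins of Itgax (CD11c) and Itgam (CD11b) were used to select the cells.

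Integrins are surface receptors made of 1 alpha and 1 beta chain, and neither chain reaches the surface in normal amounts without a partner. Leukocyte integrins with the β2 chain (CD18) bind ICAMs and complement fragments, β1 integrins bind matrix proteins and VCAM-1, and β7 integrins bind E-cadherin or MAdCAM-1. In the epidermis, LCs lie among E-cadherin-bearing keratinocytes above a laminin-rich basement membrane, and they leave through the dermis toward skin-draining lymph nodes.

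Values were read in 182 cells with at most 5% of reads on mitochondrial genes, with 67 moLCs on plate 1, 36 moLCs on plate 2, and 79 eLCs (29 on plate 1 and 50 on plate 2). Reads on genes per cell ran from 432614 to 4525429, and no pair of cells was identical. Levels are reads summed over the cells of a group per 1000000 summed reads (CPM). No animal was named for any cell, so each origin was 1 sample, no test was possible between origins, and differences were read against the agreement of the plates. All intervals are 95% and cover counting error only. PCR copies are counted as reads, so intervals on reads are too narrow for the error of counting transcripts. The Langerhans cell markers fixed for the check, Cd207 and Epcam among them, all passed a detection filter (10 of 10). The filter asks for a read in 25% or more of an origin's cells. Epcam (CD326), Cd24a (CD24), and H2-Ab1 (MHCII) encode proteins used in the sort, so their passing was no independent check. The filter was passed by 0 of 12 keratinocyte, 0 of 9 T cell, and 2 of 7 dermal DC1 markers. It was also passed by 0 of 5 melanocyte, 0 of 5 mast cell, and 1 of 8 monocyte markers. The latter was Lyz2, read in 43 moLCs and 18 eLCs. Among keratinocyte markers, Krt1, Krt15, Dsp, and Dsg3 were at 0 in all cells, and those read most often were Sfn (13 moLCs and 3 eLCs) and Krt14 (11 and 3). Among T cell markers, Cd3e, Trdc, Thy1, and Cd247 were at 0, and the one read most often was Cd7 (10 and 12). Among DC1 markers, Irf8 (63 moLCs and 53 eLCs) and Cadm1 (31 and 39) passed the filter. The defining markers Xcr1 (7 and 12) and Clec9a (1 and 3) did not. Neither did Wdfy4 (10 and 2) and Batf3 (7 and 0), which were read in more moLCs than eLCs, and Tlr3 was at 0.

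Among the 10 chains, Itgb1 and Itgb2 had the highest transcript levels in both origins. Transcript levels do not give the amounts of receptor at the surface. Per kilobase of exon, which permits levels of different genes to be compared, Itgb1 had a mean of 53.6 CPM over the 4 groups of origin and plate, and Itgb2 had 48.4. Their ranges, 34.8 to 68.2 and 39.5 to 59.3, overlapped, so the order of these chains was not resolved. Itgax followed at 24.6 CPM per kilobase, with a range of 19.8 to 31.1 that lay below both. Next came Itgb7 (13.3), Itga5 (8.02), Itgam (5.96), and Itgae (4.16), each with a range that overlapped its neighbor's. Itga4 lay below these at 0.963 CPM per kilobase, and Itgal (0.026) and Itga6 (0.014) were close to 0. Among the 6500 of 6522 genes past the detection filter that had an exon length, the per-kilobase level of Itgb1 was at percentile 87.1 and that of Itgam at percentile 37.3. A cell held reads of a median of 4 of the 10 chains in either origin, with a range of 1 to 8 in moLCs and 1 to 7 in eLCs.

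**Figure D1:**
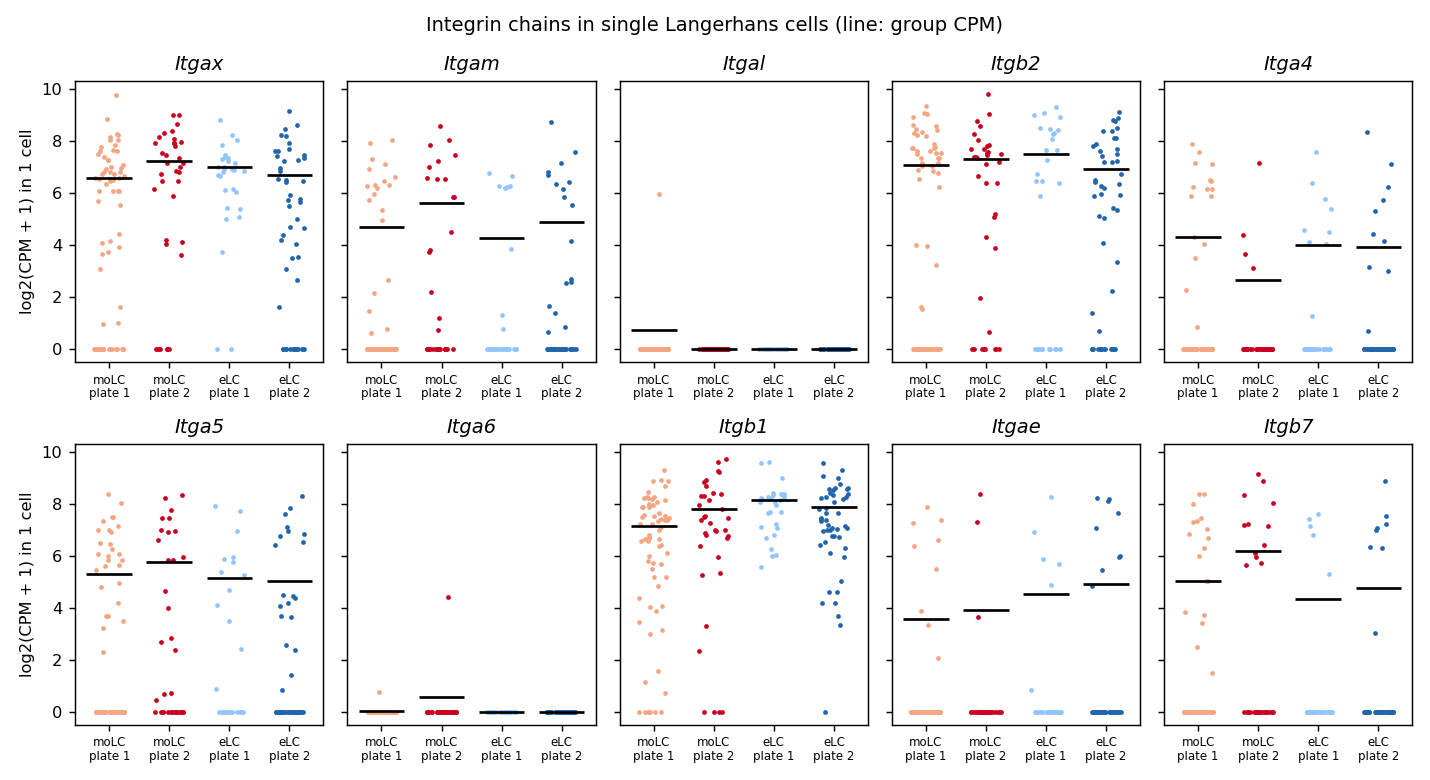
Each point is 1 cell, placed by log2(CPM + 1) of the gene named above the panel, for moLCs and eLCs on plates 1 and 2; black lines are the CPM of the summed reads of the group. Itgb1 was read in nearly every cell, Itgax and Itgb2 in most, and Itgal and Itga6 in 1 and 2 moLCs.

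Of the 10 members, 6 passed the detection filter (Itgax, Itgam, Itgb2, Itga5, Itgb1, and Itgb7). None of these 6 met the rule of size, which asks for a 2-fold or larger difference with 1 sign in the pooled cells and on both plates and which 2.02% of the 6522 genes met (53 higher in moLCs and 79 in eLCs, or 72 and 60 with TMM scaling). Also, 0 of the 6 differed by 2-fold or more when the plates were pooled, against 5.72% of all genes. The direction agreed between the pooled cells and each plate for 4 of the 6, against 53.2% of all genes. Of these 4, Itgam, Itga5, and Itgb7 were higher in moLCs and Itgb1 was higher in eLCs. Itgb7 had passed the filter only through moLCs, so its direction is not independent of the filter. With TMM scaling Itgb1 lost this agreement, as its ratio on plate 2 became 0.03. More than this cannot be read from a count over 6 chains. The median log2 ratio of moLCs over eLCs was 0.23 over all 10 members, those below the detection filter included. It was -0.10 for all genes past the filter. For the members it was -0.12 on plate 1 and 0.55 on plate 2, where Itgal had no read and no ratio. The median over all genes past the filter was -0.07 and -0.09. On plate 2 the 6 chains past the filter ran from -0.07 (Itgb1) to 1.43 (Itgb7).

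Each of the 6 chains past the filter except Itgb2 changed more between plates in moLCs than in eLCs. For Itgb2 the log2 ratio of plate 2 over plate 1 was 0.23 in moLCs and -0.59 in eLCs. All 6 chains were higher on plate 2 than on plate 1 in moLCs, by a median of 0.65 on the log2 scale, while 54.7% of all genes were higher on plate 2. In eLCs 2 of the 6 were higher on plate 2 (Itgam and Itgb7), with a median of -0.19, while 54.6% of all genes were higher there. What differed between the plates other than the cells they held is not given by the labels, and its part in these values was not tested.

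**Figure D2:**
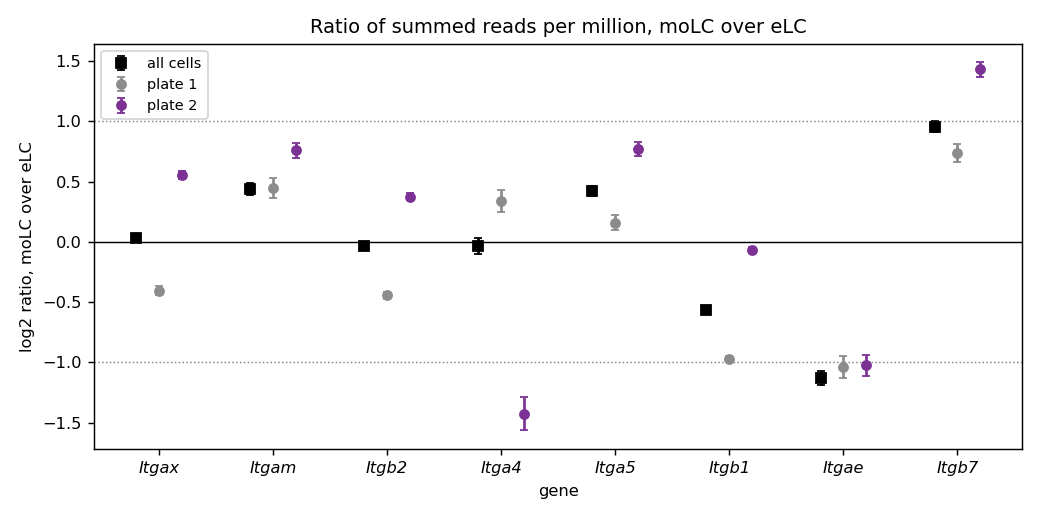
Log2 ratio of CPM, moLCs over eLCs, for the 8 chains with reads in both origins, in all cells (squares) and on each plate (circles), with 95% intervals for counting error only; dotted lines mark 2-fold. Itgax, Itgb2, and Itga4 changed sign between the plates, while Itgae stayed near -1 and Itgb7 between 0.74 and 1.43.

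The β2 family is described first. Itgb2 encodes CD18, the shared beta chain of the leukocyte integrins (chr10:77530252-77565708, plus strand, GRCm38). Its level was 133 CPM on plate 1 and 156 on plate 2 in moLCs, and 181 and 120 in eLCs, so the values of both origins overlapped. Reads were found in 67 moLCs (65.05%, interval 55.02 to 74.2) and 54 of 79 eLCs (68.4%, 56.9 to 78.4). The log2 ratio was -0.04 in all cells, -0.44 on plate 1, and 0.38 on plate 2.

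Itgax encodes CD11c, the alpha chain by which LCs and other dendritic cells are commonly gated. Its level was 95.1 and 150 CPM in moLCs (plates 1 and 2) and 126 and 102.01 in eLCs, again with overlap. The ratio turned from -0.40 on plate 1 to 0.55 on plate 2. The share of eLCs with a read was 93.1% on plate 1 and 72% on plate 2, and that of moLCs was 73.1% and 80.6%. For both chains of CD11c/CD18 the sign of the difference between origins turned with the plate.

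Itgam encodes CD11b, the alpha chain of complement receptor 3. It was read at 24.9 and 48.2 CPM in moLCs and at 18.3 and 28.4 CPM in eLCs, so moLCs were higher on each plate but the groups overlapped across plates. The log2 ratio was 0.44 in all cells, 0.44 on plate 1, and 0.76 on plate 2, and it ranged from 0.27 to 0.83 when each cell was left out in turn. The share of cells with a read differed little, and after thinning every cell to 2052512 reads it was 34.4% in moLCs and 34.3% in eLCs. Among cells with a read the median was 76.3 CPM in moLCs and 71.1 in eLCs. Much of the Itgam signal came from few cells, since 1 eLC of plate 2 held 25.01% of the reads in eLCs and 7 moLCs held most of those in moLCs.

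The sort required CD11c and CD11b protein, so both genes show how often a cell selected on the protein had no read of the transcript. Itgax was read in 141 of the 182 cells and Itgam in 64, so 118 cells sorted as CD11b+ had no Itgam read. Itgax without Itgam was the most frequent combination (49 moLCs and 39 eLCs), followed by both (29 and 24), neither (17 and 13), and Itgam without Itgax (8 and 3). A cell without a read therefore cannot be taken as a cell without the integrin.

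The genes for the β2-binding alpha chains lie close together on chromosome 7, Itgam at chr7:128062640-128118491 and Itgax at chr7:128129547-128150657, both on the plus strand. The 300 bases around each start (250 before and 50 after, GRCm38.p6, from RefSeq) are shown because these neighboring genes, gated together as proteins, were read in such different shares of cells. The windows are chr7:128062390-128062689 for Itgam and chr7:128129300-128129599 for Itgax, 5′ to 3′ on the plus strand. Capitals mark GAGGAA on either strand (TTCCTC on the reverse), a core of sites bound by the myeloid factor PU.1.
Itgam promoter: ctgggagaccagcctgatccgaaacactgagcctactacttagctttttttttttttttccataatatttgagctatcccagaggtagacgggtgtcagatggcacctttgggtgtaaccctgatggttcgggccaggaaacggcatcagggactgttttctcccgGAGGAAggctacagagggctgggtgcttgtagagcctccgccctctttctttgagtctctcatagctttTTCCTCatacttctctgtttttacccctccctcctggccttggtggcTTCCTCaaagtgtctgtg
Itgax promoter: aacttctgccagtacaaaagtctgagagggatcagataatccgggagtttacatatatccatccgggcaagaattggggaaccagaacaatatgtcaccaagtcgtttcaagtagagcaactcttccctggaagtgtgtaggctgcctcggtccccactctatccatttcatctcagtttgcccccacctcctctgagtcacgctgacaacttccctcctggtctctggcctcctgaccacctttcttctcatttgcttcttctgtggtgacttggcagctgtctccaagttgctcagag
The Itgam window held 3 matches and the Itgax window 0, and 28.3% of 32851 promoter windows of this length held at least 1. Among the other members with a window, Itgb1, Itgb7, and Itga5 each held 1 match and Itga4 held 0; windows for Itgal, Itgb2, Itga6, and Itgae were not used here. No binding was measured in these cells, and the matches describe letters only.

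Itgal encodes CD11a, which forms LFA-1 with CD18 and is abundant on lymphocytes and monocytes. It was found in 1 moLC of plate 1, with 134 reads (60.7 CPM in that cell), and in 0 of 79 eLCs, which allows a share of up to 3.80% of cells with a read if 3 cells are taken as the limit of a count of 0 (the Clopper-Pearson bound is 4.56%). That moLC also had a read of a defining DC1 marker (Xcr1 or Clec9a). Without it both origins were at 0, so no ratio is given.

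**Figure D3:**
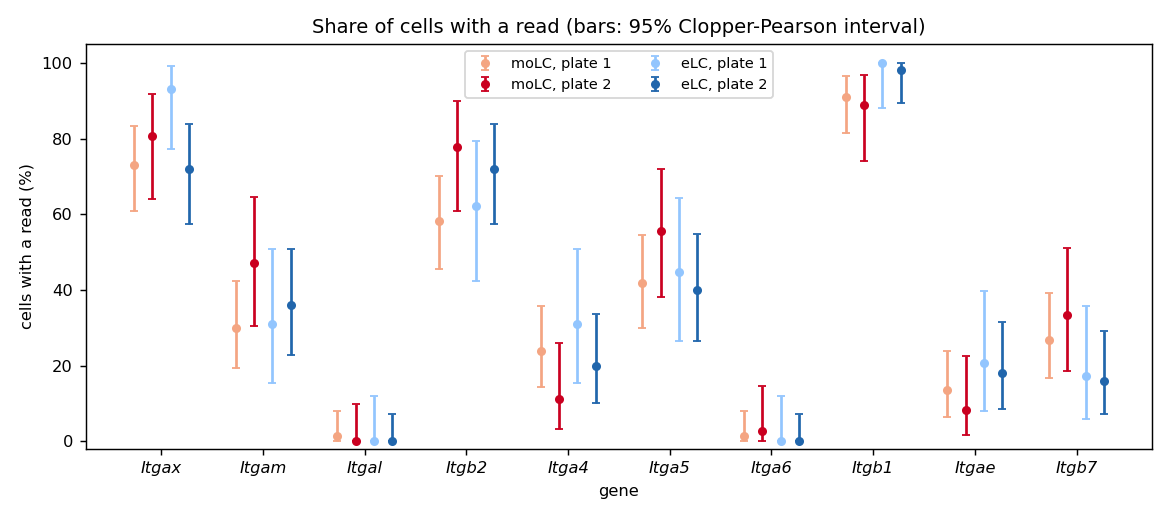
Share of cells with at least 1 read of each chain, for moLCs and eLCs on each plate, with 95% Clopper-Pearson intervals. Itgb1 lay at 88.9% or above in all 4 groups, and the intervals of the 4 groups overlapped for every gene.

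Among β1 integrins, Itgb1 was the chain read most often and had the most reads of the 10. It encodes the common beta chain of the matrix receptors (chr8:128685654-128733200, plus strand). It was read in 93 moLCs (90.3%, interval 82.9 to 95.2) and in 78 of 79 eLCs (98.7%, 93.1 to 99.97). Its level was 142 and 222 CPM in moLCs and 278 and 233 CPM in eLCs, so both eLC groups were above both moLC groups. The gap was wide on plate 1 (log2 ratio -0.97) and small on plate 2 (-0.07), with -0.57 in all cells. With TMM scaling, which raised all ratios by 0.10, the value on plate 2 became 0.03 and the direction there was lost. The highest cell had 831 CPM in moLCs and 780 in eLCs. The median cell had 109 and 159 CPM in moLCs (plates 1 and 2) and 268 and 163 in eLCs, so the median cells of plate 2 were close. Leaving out any 1 cell moved the ratio of all cells only between -0.63 and -0.52.

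Itga5 encodes the alpha chain of the fibronectin receptor α5β1. It was read at 38.5 and 53.8 CPM in moLCs and 34.4 and 31.6 in eLCs, and both moLC groups were above both eLC groups. The log2 ratio was 0.42 in all cells, 0.16 on plate 1, and 0.77 on plate 2. Reads of Itga5 were present in 46.6% of moLCs, with an interval of 36.7 to 56.7, and in 41.8% of eLCs, with one of 30.8 to 53.4 that overlapped it, and the median among cells with a read was 61.9 and 36.9 CPM.

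Itga4 encodes the alpha chain that forms VLA-4 with β1 and the gut-homing receptor with β7. It was found in 20 moLCs (19.4%) and 19 eLCs (24.1%), below the 25% asked of the members that entered the rule of size. Its level was 19.1 and 5.34 CPM in moLCs and 15.1 and 14.3 CPM in eLCs. The log2 ratio was 0.34 on plate 1 and -1.42 on plate 2, and on plate 2 a single moLC held 77.8% of the moLC reads. Exons of Cerkl overlap those of Itga4 on the opposite strand, and Cerkl itself had 430 reads in 1 eLC and 0 in moLCs. Whether the counting used strand is not given in the sources used here, so reads of Itga4 and Cerkl may not be told apart.

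Itga6 encodes the laminin-binding alpha chain that basal keratinocytes use in hemidesmosomes. It was found in 2 moLCs, with 52 reads in the one on plate 2 and 2 reads in the other, and in 0 of 79 eLCs (the same limits apply). Neither of these 2 cells had a read of Krt5 or Krt14, the basal keratinocyte keratins. Across all cells Krt14 was read in 11 moLCs and 3 eLCs.

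Turning to the β7 group, Itgb7 showed the largest ratio among the 6 chains that entered the rule of size. It entered only through moLCs, the origin where it was higher, so its rank and direction among these 6 were partly set by the filter. Itgae, with a log2 ratio of -1.13, was kept out by the same filter. Itgb7 encodes the beta chain shared by αEβ7 and α4β7 (chr15:102215995-102231944, minus strand). Its level was 31.8 and 70.7 CPM in moLCs and 19.1 and 26.2 CPM in eLCs, so both moLC groups lay above both eLC groups. The log2 ratio was 0.96 in all cells, 0.74 on plate 1, and 1.43 on plate 2, which fell short of 2-fold in all cells and on plate 1. It was read in 30 moLCs (29.1%, interval 20.6 to 38.9) and 13 of 79 eLCs (16.5%, 9.06 to 26.5), and the intervals overlapped. Cells with a read had a median of 107 CPM in moLCs and 134 in eLCs, and the highest cells had 571 and 470 CPM. Leaving out single cells moved the ratio between 0.71 and 1.35, the latter without 1 eLC of plate 2, and TMM scaling gave 1.06, so the pooled ratio stood on either side of 2-fold.

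Itgae encodes the αE chain (CD103), which with β7 binds E-cadherin and marks dermal DC1s and epidermal T cells. Its values ran opposite to those of its partner. Its level was 10.8 and 14.3 CPM in moLCs and 22.2 and 29 CPM in eLCs, so both eLC groups were above both moLC groups. The log2 ratio was -1.13 in all cells, -1.04 on plate 1, and -1.02 on plate 2, and it ran from -1.59 to -0.86 when each cell was left out in turn. It was read in 12 moLCs (11.7%, interval 6.17 to 19.5) and 15 of 79 eLCs (18.99%, 11.03 to 29.4), so these ratios rested on few cells. The highest cell had 333 CPM in moLCs and 304 in eLCs. On plate 1 a single eLC held 53.5% of the eLC reads, and on plate 2 a single moLC held 68.1% of the moLC reads. Of the 27 cells with an Itgae read, 5 (18.5%) also had a read of Xcr1 or Clec9a, against 16 of the other 155 (10.3%), and 0 of 27 had a read of Cd3d, Cd3e, or Cd3g. Summed over the 7 DC1 markers, the median was 193 CPM in cells with an Itgae read and 91.7 in the others. Most reads on this list came from Irf8 (111 CPM in moLCs and 99.2 in eLCs) and Cadm1 (38.4 and 66.7). Both passed the detection filter in these LCs, and each other marker was at 5.09 CPM or less in either origin. The part of DC1 transcripts in the Itgae values was not tested beyond leaving out cells: without the 21 moLCs and 20 eLCs that had a read of a defining keratinocyte, T cell, or DC1 marker, a choice made after the data were seen, the log2 ratio was -0.80, under 2-fold. The gap in the share of cells with an Itgae read went from -7.34 to -1.84 percentage points. In the remaining cells the ratio of Itgb7 was 0.90, that of Itgb1 -0.54, that of Itgam 0.47, that of Itga5 0.38, that of Itgax 0.07, that of Itgb2 0.23, and that of Itga4 -0.48.

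The question of pairing was whether a cell with an alpha chain also had its beta chain. Both chains of CD11c/CD18 were read in 55 moLCs (53.4%) and 45 eLCs (56.96%). Both chains of CD11b/CD18 were read in 28.2% and 26.6% of cells. The fibronectin receptor α5β1 had both chains in 42.7% of moLCs and 40.5% of eLCs, and α4β1 in 18.4% and 24.1%. All of these intervals overlapped between the origins. Chains of α4β7 were found together in 8 moLCs (7.77%) and 6 eLCs (7.59%). Itgb2 was read in 70.5% of moLCs with an Itgax read and 48% of those without, and in 71.4% and 56.3% of eLCs. For Itgam these shares of Itgb2 were 78.4% and 57.6% in moLCs and 77.8% and 63.5% in eLCs. Alpha chains that are not partners of Itgb2 were compared in the same way. For Itga5 the shares were 70.8% and 60% in moLCs and 69.7% and 67.4% in eLCs. For Itga4 they were 70% and 63.9%, and 73.7% and 66.7%. For Itgae they were 50% and 67%, and 73.3% and 67.2%. The CPM of Itgb2 had a mean rank correlation of 0.22 with the number of genes read per cell, whose part in these shares was not tested. Itgb1 was read in nearly all cells with or without Itga5, at 91.7% and 89.1% in moLCs. For αEβ7 the overlap was small, as 1 of the 12 moLCs and 2 of the 15 eLCs with an Itgae read also had a read of Itgb7 (8.33% and 13.3%), against 31.9% and 17.2% of cells without Itgae. Only 2 cells, both moLCs, lacked a read of all 3 beta chains.

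**Figure D4:**
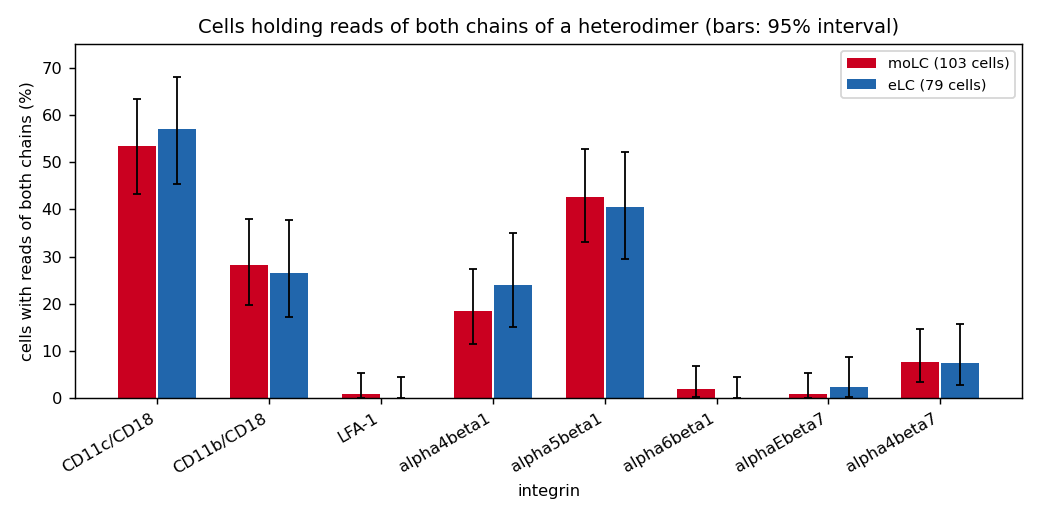
Percent of moLCs and eLCs with reads of both chains of each integrin, with 95% Clopper-Pearson intervals; LFA-1 is Itgal with Itgb2. The bars of both origins lay within the intervals of each other for CD11c/CD18, CD11b/CD18, α4β1, α5β1, and α4β7.

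Levels of partner chains were then compared across cells, as rank correlations of CPM within each origin and plate (29 to 67 cells a group). These describe cells of 1 sample each that share a plate and an amplification, and no p is given. The highest mean over the 4 groups was that of Itga4 with Itgb7 (0.20), which was also the only partner pair positive in all 4 groups (0.06 to 0.34). The next highest was that of Itga5 with Itgb7 (0.13), which are not partners. Itgax with Itgb2 had a mean of 0.12 (-0.01 to 0.24), and Itgam with Itgb2 had 0.01 (-0.27 to 0.19). Itga5 with Itgb1 had 0.02, Itga4 with Itgb1 -0.07, and Itgae with Itgb7 -0.08. The 6 partner pairs that could be computed had a median of 0.01, as did the 9 pairs of chains that are not partners. Pairs with Itgal or Itga6 had no value in eLCs, where these genes had no read. For comparison, the correlation of Itgb2 with 5565 other genes had a median of 0.02 and a 95th percentile of 0.17, and the 95th percentile was 0.14 for Itga4 and 0.16 for Itgb7 over 5566 genes. Of the partner pairs with a mean, Itga4 with Itgb7 lay above these percentiles, below the highest values of 0.32 for Itga4 and 0.35 for Itgb7, and it rested on 8 moLCs and 6 eLCs with reads of both chains. Correlations of this size in sparse counts are given as a description.

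**Figure D5:**
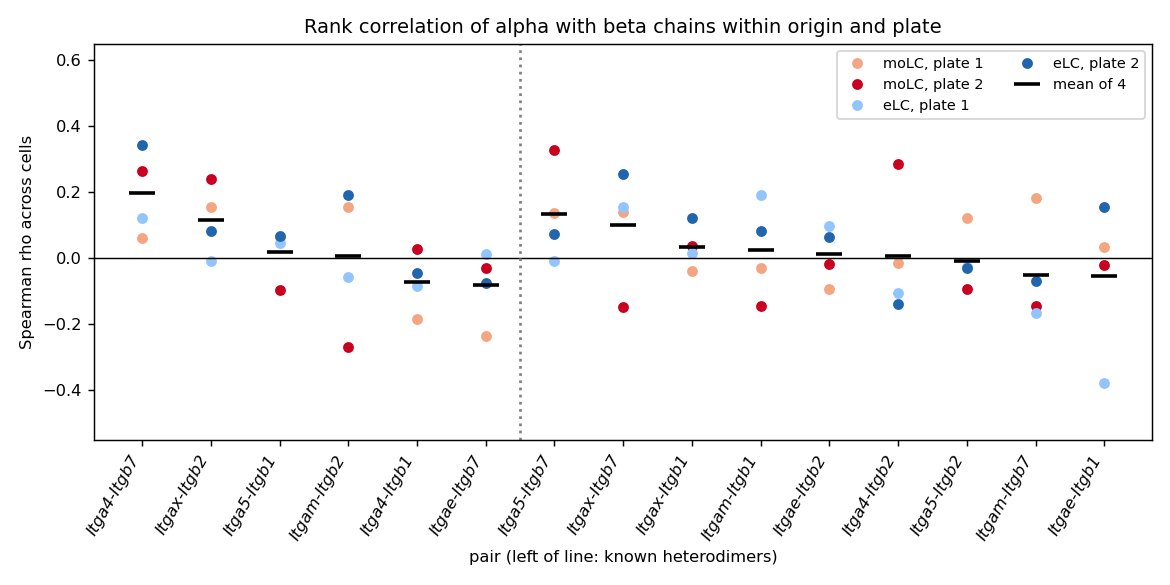
Spearman rho of CPM across cells for each alpha-beta pair, with 1 point for each group of origin and plate and a bar for the mean of the 4; partner pairs are left of the dotted line. Points scattered on both sides of 0 for most pairs, and Itga4 with Itgb7 had all 4 points above 0.

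Each of the 5 members that passed the detection filter in both origins was also compared with 5565 other genes, few of them integrins. A closest gene that is not an integrin was therefore likely from the start. The values given are the highest of these many correlations in sparse counts. How high such maxima run between unrelated genes was not tested. The highest mean correlations were of similar size. They were Chtf8 (0.29) and Xiap (0.26) for Itgax, Ppp1r2-ps1 (0.31) and Adpgk (0.30) for Itgam, and Eftud2 (0.33) and Snd1 (0.32) for Itgb2. For Itga5 they were Cct8 (0.29) and Tnfaip3 (0.27), and for Itgb1 they were Snapin (0.32) and Tmod3 (0.32).

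Other integrin chains were sparse. None of the 16 others listed passed the detection filter, which 6522 of all 45661 genes passed. Itga1, Itga2, Itga10, Itga11, and Itgb6 had no read in any cell. The chains named next were chosen after their values were seen. Itgav, the alpha chain of vitronectin and TGF-β-activating integrins, was read in 18 moLCs (17.5%) and 15 eLCs (18.99%). Itgad, a further β2 partner next to Itgax on chromosome 7, was read in 9 moLCs (8.74%) and 19 eLCs (24.1%), with a median of 2 reads in such cells and 1 cell holding 609 of the 1462 eLC reads. Itga9 was read in 8 moLCs and 1 eLC, and Itgb8, the TGF-β-activating partner of Itgav, in 1 moLC and 3 eLCs.

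Transcripts of proteins that regulate integrin activity or lie at adhesion sites were read in both origins. Of 32 activation and adhesion-site genes, 21 passed the detection filter and 3 had no read in any cell (Fermt1, Parva, and Ptk2). The filter was passed by 6522 of all 45661 genes. In either direction 0 of the 21 met the rule of size, which 2.02% of the genes past the filter met. The median log2 ratio was -0.05 against -0.10 for all genes. The highest were Rap1b (1132 CPM in moLCs and 1322 in eLCs), a small GTPase upstream of talin, Ptk2b (522 and 393), an adhesion kinase, and Skap2 (229 and 236), an adaptor of β2 integrin signaling. Of 9 membrane partners, 7 passed the filter and 0 met the rule, with a median of -0.05. Slc3a2 (2026 and 2010 CPM), the CD98 heavy chain that binds β chains, and the tetraspanins Cd9 (1325 and 1631) and Cd63 (1260 and 1344) were the highest.

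Ligands made by the LCs themselves were few. Of 22 ligand genes, 4 passed the detection filter, which 6522 of all 45661 genes passed. Of these, 0 met the rule of size, which 2.02% of the genes past the filter met, so a count over 4 genes says little. Their median log2 ratio was 0.69, against -0.10 for all genes past the filter. Icam1, the ligand of LFA-1 and CD11b/CD18, was at 377 CPM in moLCs and 180 in eLCs (log2 ratio 1.07, with 1.14 on plate 1 and 0.78 on plate 2). F11r, a junctional ligand of LFA-1, was at 322 and 327 CPM. Spp1, the matrix ligand osteopontin, was at 241 and 129 CPM (0.91, with 1.28 and 0.25). Cdh1, the E-cadherin that αEβ7 binds, named here after its values were seen, was at 96.6 and 69.1 CPM (0.48, with 1.54 and 0.03). Vcam1 and Madcam1, the endothelial ligands of the α4 integrins, were at 0 in all cells.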

How the data were processed

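Single epidermal LCs were profiled with a Smart-Seq kit without molecular identifiers. Per the labels the reads were aligned to mm10 with STAR, and the authors deposited estimated counts of reads for each gene in each cell, not normalized; the counting tool and annotation are not given in the sources used here. Because 9 deposited values in 8 cells were not whole, all were treated as estimated counts and rounded. Origin and plate were taken from the labels, and 182 of 185 cells passed the limit of 5% mitochondrial reads. Each origin was 1 sample, so the Wilcoxon test on cells of the study's methods was not repeated. Reads were summed by origin and plate and scaled to CPM, with exact Poisson, Clopper-Pearson, and binomial intervals at 95%. Ratios took 3 reads in place of 0 for an origin. Thinning to 2052512 reads left out 7 moLCs and 12 eLCs. Merged exon lengths and coordinates came from GENCODE M21 (GRCm38). Members and gene lists were chosen with earlier results of these data known. Genes named were the members, other integrin chains past the detection filter, list genes past the rule of size and the 3 highest of each list, the 2 genes closest to each member read in both origins, and markers of other cell types; exceptions are marked. Alternatives were each plate alone, all 185 cells, at least 1000 genes per cell, equal weight per cell, TMM factors, median-of-ratios size factors, totals that omit the 50 most-read genes, thinning, a minimum of 10 reads, omission of single cells, other thresholds, correlations, and lengths, and, added after the data were seen, leaving out cells with markers of other cell types. Computations used numpy 2.4.6, scipy 1.17.1, and pandas 2.3.3 under Python 3.11.15, edgeR 4.0.16 under R 4.3.3 for TMM factors, and matplotlib 3.10.9 for figures. The rule of size is a description and does not measure chance.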

Additional observations from a re-analysis of the deposited data

How the results depend on the processing

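The log2 ratios of Itgam, Itga5, Itgae, Itgb1, and Itgb7 kept their sign in all 12 alternatives each, with ranges of 0.27 to 0.83, 0.16 to 0.77, -1.59 to -0.80, -0.97 to -0.07, and 0.71 to 1.43, while those of Itgax (10 of 12), Itga4 (7 of 12), and Itgb2 (6 of 12) did not. TMM factors raised all ratios by 0.10, median-of-ratios factors by 0.09, and totals without the 50 genes with the most reads by 0.07. These scaling shifts are the same for every gene. They are smaller than the pooled ratios of the chains that kept their sign, so they could not turn those signs. The minimum of genes per cell left out no kept cell and could not change any ratio. For Itgb1, TMM scaling on plate 2 alone, a combination not counted among the 12, gave 0.03. The number of members past the rule of size rose from 0 of 6 to 1 of 8 with a minimum of 10% of cells (Itgae) and to 1 of 6 with a 1.5-fold threshold (Itgb7), and stayed at 0 with a minimum of 50%, in all cells only, with TMM factors, and with thinned cells. Of all genes 132 of 6522 were past the rule (2.02%), 479 of 9606 with the minimum of 10% (4.99%), 23 of 3649 with 50% (0.630%), 501 of 6522 with 1.5-fold (7.68%), and 373 of 6522 in all cells only (5.72%). The median rank correlation of partner pairs was 0.081 in eLCs with plates pooled, and in eLCs with reads of both chains it was 0.264 over 3 pairs. For pairs that are not partners it was 0.271 over 3 pairs in such eLCs and 0.088 over 4 pairs in such moLCs. The order per kilobase was the same for all 10 members with the longest coding transcript, and only 3 members had a median cell above 0, which kept their places. The causes of these shifts were not tested. The number of cells limits the chains read in few of them, since 1 cell could hold most reads of a group, and no value has an error between animals. No paired analysis was possible because the labels give no replicate numbers and no test was made.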
